A study of Mus musculus with 13 samples.

Results

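The genes described here are the immunoglobulin variable (V) segments of the mouse, in RNA-seq counts of cells sorted from the retina. All genes that the annotation classes as V segments and that are named Ighv, Igkv or Iglv were taken, which gave 216 of the 52550 genes counted. They comprise 113 heavy chain segments (Ighv) on chromosome 12, 100 kappa light chain segments (Igkv) on chromosome 6 and 3 lambda light chain segments (Iglv) on chromosome 16. The set was chosen with its difference between the injured groups known, so the values of that comparison, and counts of segments past a threshold in it, are descriptions and not independent tests of the set.

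The study addressed how loss of Kdm6a, an X-linked histone demethylase also called UTX, bears on the regrowth of injured optic axons. In the injured adults, 2 libraries labelled AAV2-Cre and 3 labelled AAV2-GFP came from female mice with floxed Kdm6a, labelled P42, 3 days after optic nerve crush. The study's methods place the injection at this age or later and the crush weeks after it, so the age is uncertain. These mice had received into the eye a viral vector with Cre, the recombinase that deletes floxed DNA, or with the green fluorescent protein GFP, so both groups shared the floxed allele, the injection and the crush. How many animals each library held is not given in the sources used here. The reference was 8 libraries of uninjured wild type mice, 3 at P1, 3 at P14 and 2 at P21, made as a separate dataset. Cells in every library were sorted by a Thy1.2 antibody and labelled as retinal ganglion cells (RGCs). Total counts ran from 13637602 to 16070720 in the injured adults and from 30357454 to 38812917 in development.

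The cell type label was checked against markers. The defining RGC factor Pou4f2 had 0 and 0 counts in AAV2-Cre and 2, 0 and 0 in AAV2-GFP. It had 7764 to 9306 counts at P1 and 432 and 32 at P21. Pou4f3 was likewise at 0 to 23 counts in the 5 injured libraries, while Nefl had 2440 to 2574. The summed level of 12 RGC genes was 359 and 296 CPM (counts per 1000000, scaled by library size and edgeR's TMM factors) in AAV2-Cre. In AAV2-GFP this sum was 373, 355 and 330 CPM, against 7940 to 8650 CPM at P1 and 663 and 344 CPM at P21. Nrl, a transcription factor of rod photoreceptors, had 2717 to 8822 counts in the injured libraries. Kdm6a itself was at 111 and 113 CPM in AAV2-Cre and at 116, 102 and 123 CPM in AAV2-GFP. Its count was thus not lower in the libraries labelled AAV2-Cre, and a count over the whole gene does not resolve a deleted exon. By real-time PCR of purified RGCs, the paper reported less Kdm6a message with AAV2-Cre than with AAV2-GFP. It also reported less Kdm6a staining in RGCs of floxed than of wild type mice, both given AAV2-Cre. The injured libraries were instead taken 3 days after the crush. The AAV2-GFP replicate 1 library stood apart with the lowest summed V and constant gene counts of the 5, and values without it are given below.

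An antibody gene is assembled during B cell development, when the Rag1 and Rag2 recombinase joins a V segment to joining (J) segments and, in the heavy chain, a diversity segment. Each B cell and its offspring thereby mainly express a single heavy chain V segment and a single light chain V segment, and plasma cells, which secrete antibody, make very large amounts of both messages. The mix of V segments in a sample therefore depends on which B cell clones it holds and on how much message each makes. The V exon codes for most of the antigen-binding domain, and its end lies next to a conserved cysteine.

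The Ighv segments lay between 113578504 and 116000461 on chromosome 12 (GRCm38), all on the minus strand. Igkv segments lay between 67555497 and 70704177 on chromosome 6, 38 on the plus and 62 on the minus strand, and the 3 Iglv segments between 19085017 and 19260859 on chromosome 16. Exons of a segment summed to 294 to 501 bases, with a median of 359. Segments resemble each other closely. Over their last 290 bases the median identity of a segment to its nearest relative was 94.8%, and 44 segments were at least 97% identical to another. The last 150 bases of 6 segments are printed because they were the most counted segments of single libraries, had the highest mean level among the called segments, or represent the lambda chain. They are GENCODE transcripts on the coding strand, and capitals mark the letters TANTNNTG, which in these 6 cover a tyrosine codon, the codon after it and the start of the cysteine codon. On that strand, 207 of the 216 segments (95.8%) held these letters in their last 60 bases.
Ighv1-50: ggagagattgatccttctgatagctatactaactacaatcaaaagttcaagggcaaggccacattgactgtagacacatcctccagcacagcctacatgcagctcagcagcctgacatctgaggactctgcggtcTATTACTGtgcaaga
Ighv1-52: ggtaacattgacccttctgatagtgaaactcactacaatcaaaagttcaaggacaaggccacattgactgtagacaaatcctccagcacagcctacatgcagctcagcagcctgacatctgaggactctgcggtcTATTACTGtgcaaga
Ighv1-69: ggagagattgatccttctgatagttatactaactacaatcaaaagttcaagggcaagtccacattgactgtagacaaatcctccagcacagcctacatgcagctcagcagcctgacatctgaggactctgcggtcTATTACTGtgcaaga
Igkv10-96: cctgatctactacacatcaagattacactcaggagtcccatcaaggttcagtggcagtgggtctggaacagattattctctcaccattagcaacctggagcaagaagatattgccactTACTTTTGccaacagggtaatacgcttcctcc
Igkv14-111: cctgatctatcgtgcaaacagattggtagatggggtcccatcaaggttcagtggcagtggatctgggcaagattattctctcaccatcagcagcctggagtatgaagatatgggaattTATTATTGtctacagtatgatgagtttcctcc
Iglv1: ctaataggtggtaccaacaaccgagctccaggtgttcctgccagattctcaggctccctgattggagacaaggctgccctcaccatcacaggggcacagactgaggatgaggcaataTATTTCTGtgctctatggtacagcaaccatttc
Ighv1-50 (chr12:115119748-115120219) and Ighv1-69 (chr12:115623161-115623595) were 97.2% identical, while Ighv1-52 (chr12:115145487-115145919) was 92.8% identical to the former and 94.1% to the latter. Igkv10-96 (chr6:68631963-68632442, minus strand) and Igkv14-111 (chr6:68256389-68256869, plus strand) were 75.9% identical. Reads from segments this alike may be split between them or dropped in counting, so the value of a single segment is less certain than a family or chain sum.

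V segments were abundant in the injured adults and nearly absent in development. They took 36427 and 53793 counts in the AAV2-Cre libraries and 5164, 19774 and 19848 in AAV2-GFP. At P1 the summed counts were 2, 0 and 0, at P14 they were 7, 5 and 4, and at P21 they were 1 and 0. The lowest injured library exceeded the highest development library 1990-fold in CPM without TMM scaling, a comparison across 2 datasets in which age, injury, injection and genotype cannot be told apart. A total of 0 counts allows up to 0.0908 CPM without TMM scaling in the P21 replicate 2 library, for counting error alone.

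**Figure D1:**
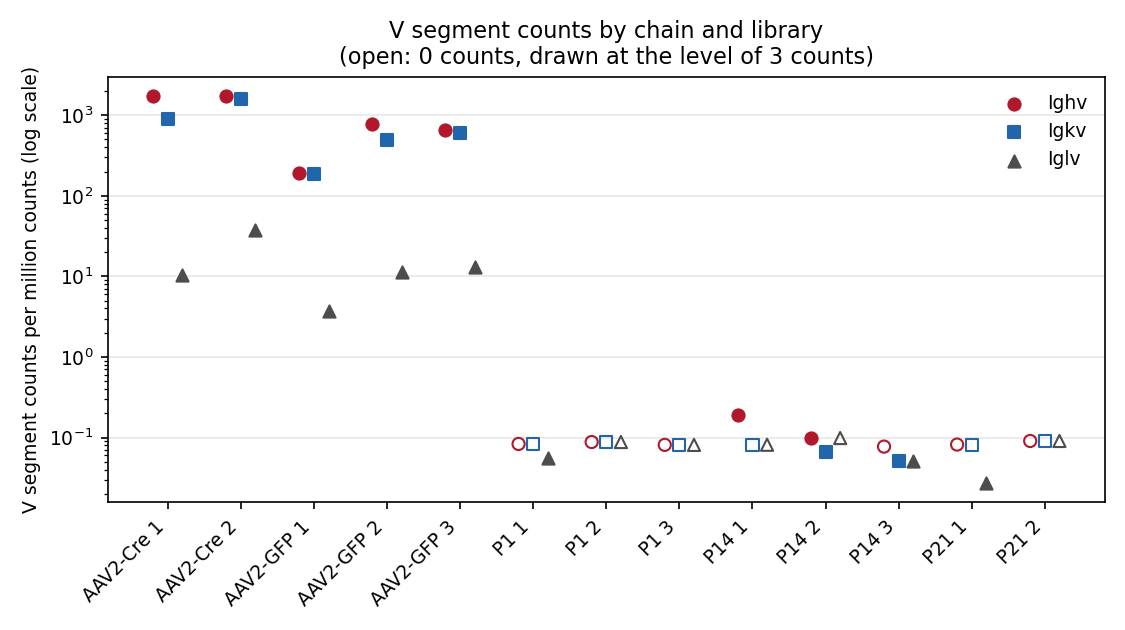
Ighv, Igkv and Iglv segments in CPM without TMM scaling (log scale) in each of the 13 libraries; open symbols stand for 0 counts and sit at the level of 3 counts, so that symbols below them hold 1 or 2 counts. All chains were orders of magnitude higher in the 5 injured libraries, and AAV2-GFP 1 was the lowest of these.

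Among development libraries, 7 segments accounted for all 19 counts. Iglv1, a lambda segment, had 2 counts at P1, 2 at P14 and 1 at P21. Ighv8-8 had 4 and Ighv1-80 had 3 in a single P14 library, and Igkv10-96 and Ighv6-4 had 2 each in another. No segment passed the low-count filter there, so neither P14 against P1 nor P21 against P14 was tested. These levels were too low to compare the ages.

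Within the injured adults, V segments made up 0.263% and 0.335% of counts in AAV2-Cre and 0.0379%, 0.129% and 0.126% in AAV2-GFP. Each share had a 95% Wilson interval of at most ± 0.003 percentage points, which covers counting error only. Both AAV2-Cre libraries lay above all AAV2-GFP libraries, and AAV2-GFP replicate 1 lay far below its group. The means were 0.299% ± 0.0509 (SD, n = 2) and 0.0976% ± 0.0518 (SD, n = 3), a 3.06-fold difference or 1.62 on the log2 scale. Without AAV2-GFP replicate 1 the log2 ratio was 1.23, a 2.35-fold difference. The AAV2-GFP libraries themselves differed 3.4-fold. With 2 against 3 libraries, no exact permutation test could pass the 0.05 threshold.

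Markers of the cells that express V segments moved alongside. The summed level of 15 B cell genes was 784 and 650 CPM in AAV2-Cre and 370 to 413 CPM in AAV2-GFP, and that of 12 plasma cell genes was 5740 and 7160 against 1410, 4350 and 3470 CPM. Of the B cell list, 4 of 15 tested genes were called higher (Cd79a, Fcrla, Ms4a1 and Tnfrsf13c), beside 1.13% of all genes tested, and 12 had both AAV2-Cre libraries above every AAV2-GFP library, beside 17.9% of all genes. Among plasma cell genes, 1 of 11 was called higher (Derl3, of the secretory pathway) and 10 had both AAV2-Cre libraries above every AAV2-GFP library, beside the same 1.13% and 17.9%. The count of Jchain, which joins secreted IgA and IgM units, was 60858 and 88922 in AAV2-Cre and 12670, 54970 and 44544 in AAV2-GFP. T and NK cell genes were also at a higher sum, 1570 and 945 CPM against 421, 788 and 755 CPM. Of these, 0 of 17 were called by edgeR at the adjusted threshold and 14 were higher at an unadjusted p under 0.05, beside 8.57% of all genes. In 15 of the 17 both AAV2-Cre libraries lay above every AAV2-GFP library, beside 17.9%. Of 12 rod genes, 0 were called by edgeR, 5 were lower at an unadjusted p under 0.05, beside 7.9% of all genes, and 8 had both AAV2-Cre libraries below every AAV2-GFP library, beside 17.6%. Their sum was 13800 and 29700 CPM in AAV2-Cre against 35800, 30100 and 31900 CPM in AAV2-GFP. AAV2-Cre replicate 1 was thus far lower, while replicate 2 lay just below the lowest AAV2-GFP library. Microglia and macrophage genes summed to 7180 and 8960 against 5190, 8060 and 7370 CPM. In these bulk libraries more B lineage cells and more message per cell cannot be told apart, and the part of cell makeup in the V segment values was not tested. In development Ms4a1, which encodes CD20, had 0 counts in all 3 P1 libraries, while the B cell list summed to 290 to 317 CPM at P1, where Ebf1, a factor also used by neurons, had 9308 to 11110 counts.

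The constant genes, which follow V segments in the same messages, gave a like order. Their 12 genes summed to 24800 and 27600 CPM in AAV2-Cre and 4490, 15000 and 12000 CPM in AAV2-GFP. V segments had 10.8 and 12.5 counts for every 100 constant counts in AAV2-Cre, and 8.34, 8.44 and 10.3 in AAV2-GFP. This ratio differed much less between libraries than the V share did, and the groups did not overlap in it. For kappa alone, Igkv segments had 6.31 and 9.09 counts per 100 counts of the constant gene Igkc in AAV2-Cre and 6.57, 5.09 and 7.48 in AAV2-GFP, where the groups overlapped. The alpha constant gene Igha had 68220 and 100426 counts in AAV2-Cre, against 17838, 70330 and 54996. Of the 12 constant genes, 1 was called higher, beside 1.13% of all genes tested. This was Ighg2b, with 49774 and 26734 counts against 2486, 5178 and 4539. At an unadjusted p under 0.05 by edgeR, 8 of the 12 were higher, beside 8.57% of all genes. Both AAV2-Cre libraries lay above every AAV2-GFP library in 8 of them, beside 17.9% of all genes.

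Genes that assemble or mutate V exons were also read out. Over all genes tested, 1.13% were called higher and 0.217% lower, so 0 calls in lists of 3 to 17 genes are not read as a result. At an unadjusted p under 0.05 by edgeR, 8.57% of all genes were higher and 7.9% lower. Of the V(D)J recombination list, 0 of 10 tested genes were called by edgeR, and 0 had an unadjusted p under 0.05. Rag1 had 2 counts and Rag2 had 4 over the 5 injured libraries, too few to be tested. Dntt, which adds bases at V joints, had 178 and 168 counts in AAV2-Cre and 79, 95 and 4 in AAV2-GFP. The surrogate light chain genes Vpreb1 and Vpreb2 had 0 counts in these 5 libraries, and 0 of 3 tested genes of the pre-B receptor list were called, with 1 at an unadjusted p under 0.05. Of the genes of somatic mutation and class switching, 0 of 7 tested were called, with 1 higher at an unadjusted p under 0.05. B cell receptor signaling genes had 0 of 17 called and 12 higher at an unadjusted p under 0.05. Their median log2 difference between AAV2-Cre and AAV2-GFP was 0.69, beside -0.03 for all genes. In 12 of them both AAV2-Cre libraries lay above every AAV2-GFP library, beside 17.9% of all genes, and in 1 both lay below, beside 17.6%.

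Heavy chain segments held 65.6% and 51.4% of V counts in AAV2-Cre and 50%, 61.3% and 51.7% in AAV2-GFP. Their mean share was 58.5% ± 10 (SD, n = 2) and 54.3% ± 6.09 (SD, n = 3), and the groups overlapped. Without AAV2-Cre replicate 1 the difference of 4.19 percentage points became -2.89. Lambda segments were rare, at 1.16% and 2.34% of light chain V counts in AAV2-Cre and 1.97%, 2.3% and 2.13% in AAV2-GFP. The balance of the chains thus differed by no more than the libraries of 1 group differed from each other.

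The number of segments in use was larger in AAV2-Cre. At least 1 count was seen for 156 and 164 of the 216 segments in AAV2-Cre and for 120, 118 and 129 in AAV2-GFP. Since the AAV2-Cre libraries held more V counts, each library was also thinned at random to 5164 V counts, the lowest total, 100 times. This left on average 130 and 149 segments in AAV2-Cre and 120, 106 and 115 in AAV2-GFP, so the groups still did not overlap. The effective number of segments (the exponential of the Shannon entropy, which is the number of equally used segments that would give the same diversity) was 50.5 and 71.7 in AAV2-Cre and 49.4, 43.2 and 52.5 in AAV2-GFP. Here AAV2-Cre replicate 1 lay inside the AAV2-GFP range, and the difference of the means, 12.7, was 2.11 without AAV2-Cre replicate 2.

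**Figure D2:**
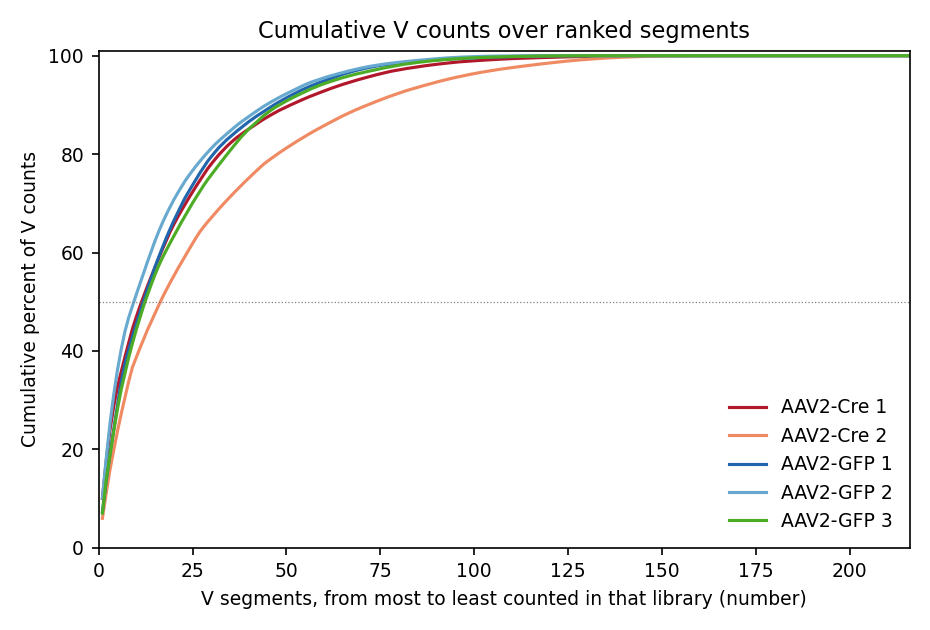
Cumulative percent of V counts against the number of V segments, ranked from most to least counted within each of the 5 injured libraries; the dotted line is at 50%. The line of AAV2-Cre 2 rises most slowly, with 38.7% of counts in its 10 leading segments, and that of AAV2-GFP 2 most steeply, with 51.5%.

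Across the 5 injured libraries, 188 segments had a count, 73 had a count in every library (35 Ighv, 36 Igkv and 2 Iglv), and 19 were seen in only 1 library. The 28 segments at 0 were 15 Ighv and 13 Igkv, and 27 segments were at 0 in all 13 libraries. A shared stretch of 100 bases with another segment was absent in 15 of the 28 segments at 0 and in 116 of the 188 seen. The paper's reads were paired and longer than this, so such a stretch need not make a read ambiguous.

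The leading segment differed from library to library. Ighv1-50 led in AAV2-Cre replicate 1 with 10.1% of V counts, Igkv14-111 in AAV2-Cre replicate 2 with 6.0%, and Ighv1-69 in AAV2-GFP replicate 2 with 10.2%. Igkv10-96 led in the remaining AAV2-GFP libraries, with 7.36% in replicate 1 and 7.04% in replicate 3.

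**Figure D3:**
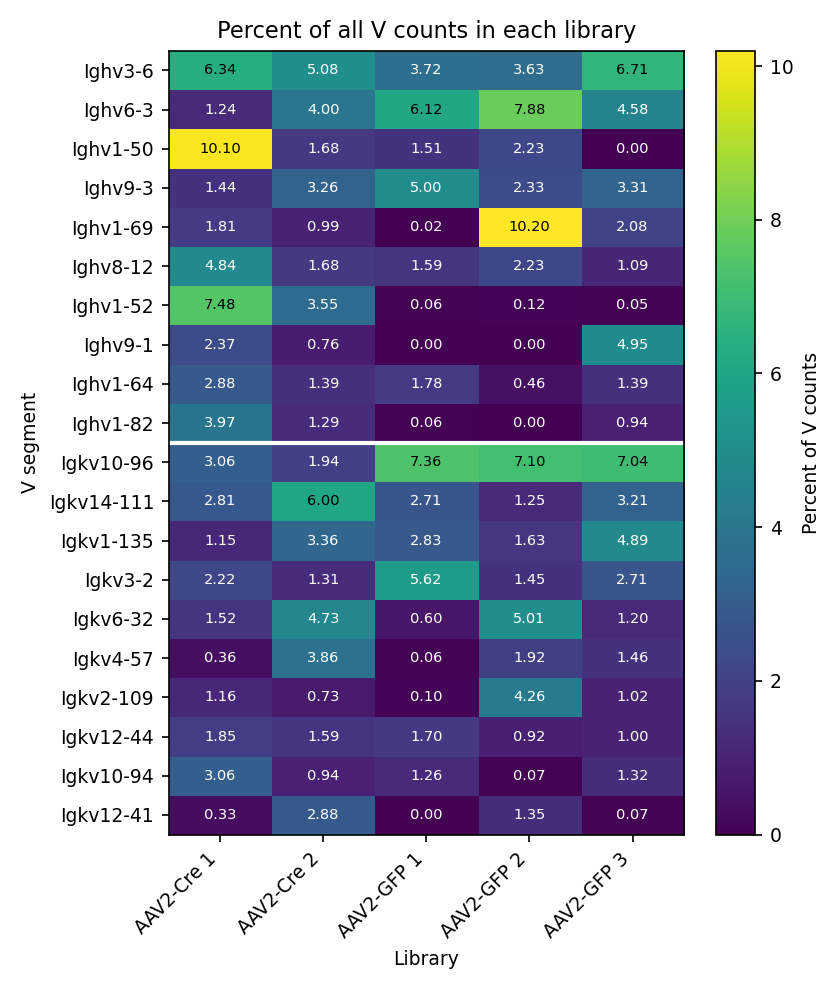
Percent of all V counts taken by the 10 Ighv (upper block) and 10 Igkv (lower block) segments with the highest mean CPM, in each of the 5 injured libraries; the number in each cell is the percent. High cells are scattered over single libraries, such as Ighv1-50 in AAV2-Cre 1 and Ighv1-69 in AAV2-GFP 2, while Igkv10-96 is high in all 3 AAV2-GFP libraries.

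Among heavy chain segments, Ighv3-6 was the most abundant, with 2308 and 2732 counts in AAV2-Cre and 192, 717 and 1332 in AAV2-GFP. It was used in all libraries, at 3.63% to 6.71% of V counts. Its log2 difference in level was 1.85 (SE 0.54), 1.41 without AAV2-GFP replicate 1 and 2.54 without AAV2-GFP replicate 3. Ighv6-3 had 453 and 2154 counts in AAV2-Cre and 316, 1559 and 910 in AAV2-GFP. Its groups overlapped, with a log2 difference of 0.52 (SE 0.63) that became -0.84 without AAV2-Cre replicate 2, 1.24 without AAV2-Cre replicate 1 and 1.13 without AAV2-GFP replicate 2. Ighv9-3 likewise overlapped, with 524 and 1752 against 258, 461 and 657 counts.

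Several heavy chain segments were concentrated in a single library. Ighv1-50 had 3671 and 904 counts in AAV2-Cre and 78, 440 and 0 in AAV2-GFP, with 74.5% of its summed CPM in AAV2-Cre replicate 1. Ighv1-69, its 97.2% identical relative printed above, had 660 and 535 counts in AAV2-Cre and 1, 2014 and 413 in AAV2-GFP. These near-identical sequences thus had their highest counts in different libraries and different groups. For Ighv1-69 the log2 difference was -0.32 (SE 1.3), and it became 1.69 without AAV2-GFP replicate 2 and -0.91 without AAV2-GFP replicate 1. Ighv9-1 had 864 and 411 counts in AAV2-Cre and 0, 0 and 983 in AAV2-GFP, and Ighv1-82 had 1447 and 692 against 3, 0 and 186. A segment could therefore be among the leaders in 1 library and have 0 counts in another of the same group.

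Ighv8-12 had 1762 and 905 counts in AAV2-Cre and 82, 441 and 217 in AAV2-GFP, without overlap and with a log2 difference of 2.55 (SE 0.55), which was 1.9 without AAV2-Cre replicate 1 and 3.27 without AAV2-GFP replicate 2. It did not pass the threshold for a call.

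Kappa segments showed the same mixture. Igkv10-96 was abundant in all 5 libraries, with 1114 and 1044 counts in AAV2-Cre and 380, 1404 and 1398 in AAV2-GFP. Its level differed by 0.12 on the log2 scale (SE 0.42), or -0.26 without AAV2-GFP replicate 1, yet it took 3.06% and 1.94% of V counts in AAV2-Cre against 7.36%, 7.1% and 7.04% in AAV2-GFP. It was thus a smaller part of the V counts in both AAV2-Cre libraries, while its level overlapped between the groups.

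Igkv14-111 had 1024 and 3227 counts in AAV2-Cre and 140, 247 and 638 in AAV2-GFP, with a log2 difference of 2.68 (SE 0.56). It was 1.78 without AAV2-Cre replicate 2, 3.28 without AAV2-Cre replicate 1 and 3.46 without AAV2-GFP replicate 3. Igkv3-2 had 809 and 703 against 290, 287 and 537 counts, and a difference of 1.1 (SE 0.28). Neither overlapped between groups in CPM, and neither was called. Igkv1-135, Igkv6-32, Igkv4-57, Igkv12-41 and Igkv2-109 all overlapped. Of these, Igkv12-41 was the most uneven, with 120 and 1549 counts in AAV2-Cre and 0, 266 and 13 in AAV2-GFP, and 78.9% of its summed CPM in AAV2-Cre replicate 2. Igkv2-109 was highest in AAV2-GFP replicate 2, with 843 counts, against 424 and 394 in AAV2-Cre. Igkv10-94 had 1113 and 508 counts in AAV2-Cre against 65, 14 and 262, with a log2 difference of 2.96 (SE 0.84), which was 2.19 without AAV2-Cre replicate 1 and 4.38 without AAV2-GFP replicate 3.

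Of the lambda segments, Iglv1 had 79 and 477 counts in AAV2-Cre and 31, 102 and 137 in AAV2-GFP. Iglv3 had 65 and 119 against 20, 74 and 52, and Iglv2 had 1 and 16 against 0, 0 and 15. Iglv1 held 54.5% to 77.9% of lambda counts in all 5 libraries, and Iglv2, 97.6% identical to it, held at most 7.35%.

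Most segments that could be tested were at a higher level in AAV2-Cre, but few passed the thresholds. The low-count filter passed 138 of 216 segments (68 Ighv, 67 Igkv and 3 Iglv), which held 98.8% of V counts. A gene counted as a DEG where edgeR's quasi-likelihood test across 18395 genes gave p under 0.05 after Benjamini-Hochberg adjustment, with the fold change past 1 in either direction on the log2 scale. By this rule 11 of the 138 were called higher, 5 Ighv and 6 Igkv, beside 1.13% of all genes tested. None was called lower, beside 0.217% of all genes. At an unadjusted p under 0.05, 48 were higher, beside 8.57% of all genes, and 1 was lower, beside 7.9%. The latter was Igkv2-112, which is named only for this count, and DESeq2 and limma-voom also called 0 lower. The median log2 difference of the 138 was 1.62 beside -0.03 for all genes tested, and 120 (87%) lay above 0 beside 47.6%. In 54 segments (39.1%) both AAV2-Cre libraries lay above every AAV2-GFP library, beside 17.9% of all genes. In 0 segments did both lie below, beside 17.6% of all genes. As the contrast was known when the set was chosen, nothing is read from these shares. The 78 untested segments held 1459 counts in AAV2-Cre and 214 in AAV2-GFP, and none had over 273 counts in sum. The count of calls was unstable, at 3 without AAV2-Cre replicate 1, 2 without AAV2-Cre replicate 2, 6 without AAV2-GFP replicate 1 and 24 without AAV2-GFP replicate 3.

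The called segment with the highest level was Ighv1-52, with 2723 and 1909 counts in AAV2-Cre and 3, 23 and 9 in AAV2-GFP. It took 7.48% and 3.55% of V counts in AAV2-Cre and at most 0.116% in AAV2-GFP. Its log2 difference was 7.7 (SE 0.48), 7.3 without AAV2-GFP replicate 1 and 8.64 without AAV2-GFP replicate 2. Its sequence, printed above, was 98.6% identical to that of Ighv1-61, so counts of this pair are uncertain. The AAV2-GFP counts of Ighv1-52 alone would not have passed the low-count filter, so its call is a description only. Ighv1-64 had 1048 and 746 counts against 92, 91 and 275, and Igkv12-44 had 673 and 855 against 88, 181 and 198. Their log2 differences were 2.65 (SE 0.44) and 2.36 (SE 0.29), and both segments had counts in all 5 libraries. The value of Ighv1-64 was 2.31 without AAV2-Cre replicate 1 and 3.33 without AAV2-GFP replicate 3.

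Other called segments were all but absent from AAV2-GFP. Igkv16-104 had 472 and 265 counts in AAV2-Cre and 1, 0 and 0 in AAV2-GFP. Ighv14-1 had 110 and 56 counts and Igkv11-125 had 135 and 54, while both were at 0 in every AAV2-GFP library. Igkv16-104, Ighv14-1 and Igkv11-125 passed the low-count filter through the AAV2-Cre libraries alone, so their calls are descriptions only. Against a floor of 3 counts per AAV2-GFP library, Ighv14-1 was at least 28.9-fold higher and Igkv11-125 at least 33.1-fold higher in AAV2-Cre. These bounds cover counting error only, not the spread between libraries. The remaining called segments, Ighv1-9, Ighv1-84, Igkv14-130, Igkv13-84 and Igkv3-7, had 15 to 982 counts in AAV2-Cre and 0 to 261 in AAV2-GFP, and are named because they complete the count.

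**Figure D4:**
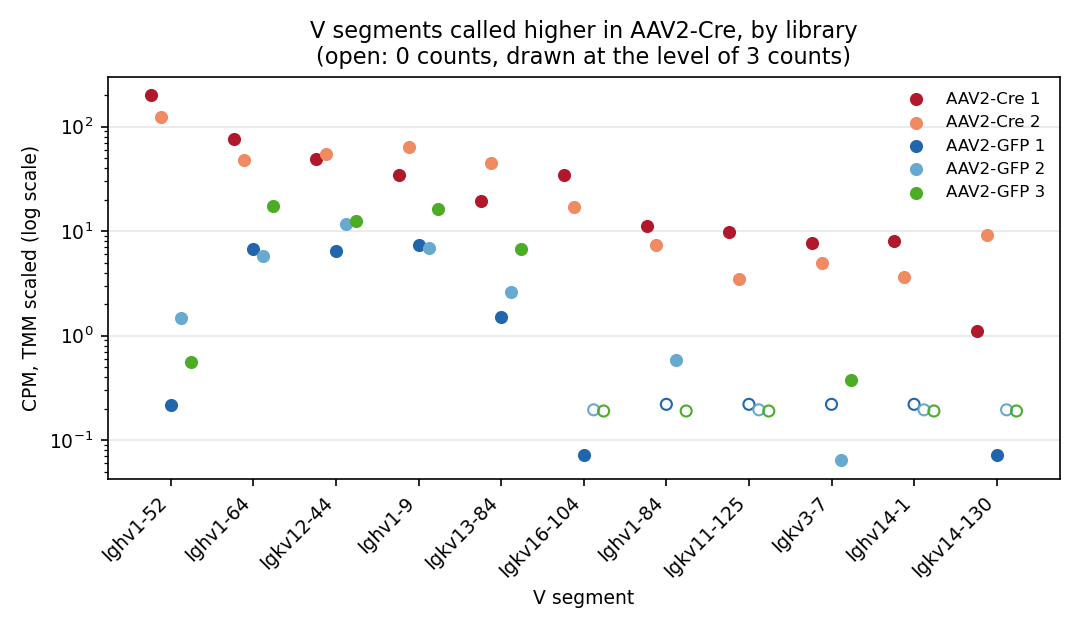
TMM-scaled CPM (log scale) of the 11 called V segments in each of the 5 injured libraries; open symbols stand for 0 counts and sit at the level of 3 counts. Both AAV2-Cre libraries lie above all AAV2-GFP libraries for each segment, and Ighv1-52 is the highest of the 11 in both AAV2-Cre libraries.

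The spread of V segments between libraries of a group was large. The biological coefficient of variation, the spread between replicates beyond counting error as a share of the mean, had a median of 0.852 over the 138 tested segments and 0.27 over all genes tested. For abundance in the middle range of the segments, it was 0.842 for 68 segments and 0.361 for 5290 other genes. Constant genes had a median of 0.46 and B cell genes one of 0.221. Of the 138 segments, 76 had over 50% of their summed CPM in 1 injured library. This count mixes the spread within a group with the difference between the groups. A segment seen only in the 2 AAV2-Cre libraries passes 50% in 1 of them unless they are equal. The share over all genes was not computed. AAV2-Cre replicate 2 was the highest library for 73 segments and AAV2-Cre replicate 1 for 34, against 6, 10 and 15 for the AAV2-GFP libraries. A count of 0 in at least 1 injured library was found for 67 tested segments, 38 of which had at least 100 counts in another.

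Segment use was also compared between pairs of libraries. The shared use of a pair of libraries, the sum over segments of the smaller of their percents of V counts, was 57.0% for the AAV2-Cre pair, 47.6% to 52.4% for the 3 AAV2-GFP pairs, and 43.0% to 57.6% for the 6 pairs across groups. For the 12 constant genes it was 84.5% to 97.1%. The ranges within and between groups overlapped, and no test was made since pairs share libraries.

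Grouped by sequence family, Ighv1 was the largest, with 53 segments, of which 50 were seen. It held 61.2% and 52.7% of Ighv counts in AAV2-Cre and 35.7%, 48.6% and 29.1% in AAV2-GFP. The groups did not overlap, and Ighv1 includes Ighv1-50 and Ighv1-52. The families Ighv5, with 4.73% and 5.56% against 12.2%, 12.3% and 10.9%, and Ighv14, with 2.95% and 4.22% against 10%, 6.39% and 8.17%, took smaller parts in AAV2-Cre. Ighv6 had 2.21% and 8.59% in AAV2-Cre and 12.6%, 13.3% and 8.98% in AAV2-GFP. These are parts of a whole, so a larger share for Ighv1 leaves less for the others. In kappa, Igkv10, with only 3 segments, took 18.1% and 6.09% of Igkv counts in AAV2-Cre and 17.7%, 19.0% and 18.0% in AAV2-GFP. Igkv4, with 26 segments, took 3.59% and 17.6% against 12%, 10.7% and 11.8%. For both families the AAV2-Cre libraries lay farther from each other than the AAV2-GFP libraries did.

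Segments were also grouped by position in the locus. The 37 Ighv segments farthest from the J segments, where much of Ighv1 lies, held 59.5% and 43.7% of Ighv counts in AAV2-Cre and 26.8%, 44.9% and 19.5% in AAV2-GFP. For the 38 nearest segments these were 14.9% and 22.3% against 40.5%, 24.8% and 37.6%. The nearest segments did not overlap between groups, while the farthest did. In the kappa locus the farthest 33 segments held 52.9% and 41.1% in AAV2-Cre and 43.5%, 44.5% and 55.8% in AAV2-GFP, with overlap.

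**Figure D5:**
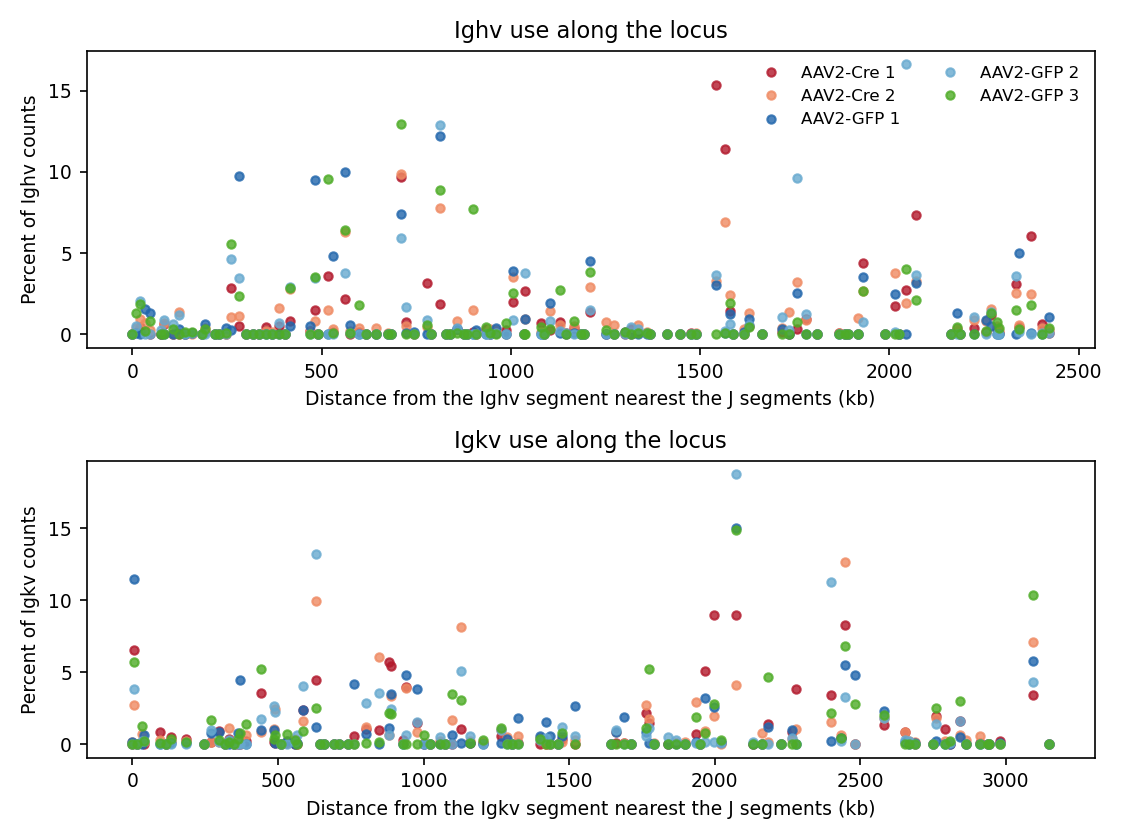
Percent of Ighv counts (top) and Igkv counts (bottom) for each segment against its distance in kb from the segment nearest the J segments, in the 5 injured libraries. Use is spread over each whole locus in a few tall points per library, with most segments near 0.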

How the data were processed

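Thy1.2-sorted retinal cells were sequenced from poly-A RNA with an unstranded kit. The authors used Trimmomatic 0.39 for trimming, FastQC 0.11.9 for quality control and HISAT2 2.2.1 for alignment to GRCm38, and deposited raw counts per gene from featureCounts (Subread 2.0.3). The counting settings and the annotation are not given in the sources used here. The table holds 52550 genes, and 52403 IDs matched GENCODE M21 of the same build without their version. V segments had no promoter entry in the RefSeq table used here, so no promoter was printed.

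The 5 injured libraries (AAV2-Cre 2, AAV2-GFP 3) and the 8 development libraries were fitted apart with edgeR 4.0.16 (TMM, filterByExpr, glmQLFit, glmQLFTest) in R 4.3.3. The study's methods describe the libraries of a condition as biological replicates, without the number of animals in each. Percents of V counts used raw counts. Identities used Biopython 1.88 (global alignment). Scripts were tested on simulated data.

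Members, gene lists and tests were chosen with earlier results of these data known. Named segments are the 10 Ighv, 10 Igkv and up to 4 Iglv with the highest mean CPM over the injured libraries, at most 6 called in each direction with the smallest p, and 5 with the highest development counts. From each gene list, up to 4 genes with the smallest p could be named, and further genes were named as defining markers. Alternatives were DESeq2 1.42.0, limma-voom 3.58.1, other scalings and filters, all 13 libraries in 1 fit, a replicate block, and each library left out in turn. Values of some listed genes are not reported here.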

Additional observations from a re-analysis of the deposited data

How the results depend on the processing

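The number of V segments called higher in AAV2-Cre (11 of 138) depended on the processing. It was 22 with DESeq2, 85 of 188 with no low-count filter and 19 with all 13 libraries in 1 fit, and the same 11 with DESeq2 size factors, library size alone or no fold change limit. Limma-voom also called 11, of which 7 were shared, and at least 10 counts in every library gave 9 of 38, of which 4 were shared. DESeq2 shared 10. Leaving out each library in turn gave 2 to 24 calls, and of the 11 calls 2 were also made without either AAV2-Cre library, 5 without AAV2-GFP replicate 1, 6 without replicate 2 and 9 without replicate 3. With 1 AAV2-Cre library left, its spread was taken to equal that of AAV2-GFP. The number called lower (0) was 1 with no low-count filter and 0 to 1 without a library. With the replicate number as a block, 35 were called higher. Deviations of same-numbered libraries from their group means correlated at -0.01 and -0.04. The deviations of 2 AAV2-Cre libraries mirror each other, so these values cannot decide whether the numbers pair libraries. The share of all genes called was taken for the main fit alone. Counts of calls under other settings, here and above, therefore have no such share beside them and are not read as particular to V segments. The cause of the differences between settings was not tested.

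The log2 ratio of the V share was 1.62, 1.67 on TMM-scaled CPM, 1.63 without the most counted segment of each library, and 1.23 to 1.87 without a library. The difference in effective number was 2.11 to 23.34, and that in the Ighv share -2.89 to 11.27, without a library. In development, 0 calls were made under every alternative run, with 7 segments tested where no filter was used. Of 377 recomputed values of named segments, 319 stayed within 1 SE, and 8 values, of 6 uncalled segments, changed sign. With 2 or 3 libraries a group, the spread between libraries limits these comparisons, and how far depth limits them was not tested.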
